A study of Mus musculus with 113 samples.

Results

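The 11 SFEB populations sampled at 0–9 h and at 34–60 h of neural induction were compared to describe how mouse embryonic stem (ES) cells left the naive state and took on an epiblast-like one. They are 11 of the 22 SFEB populations and of the 113 samples of the series, and they were chosen by their labelled times alone, with 6 populations at 0–9 h (0, 0, 1, 2, 8 and 9 h) and 5 at 34–60 h (34, 38, 42.5, 54.5 and 60 h). All came from mouse R1 ES cells, an established line, passaged once without feeder cells and then dissociated into GKSR medium in Petri dishes, where they float and aggregate without serum, the culture known as SFEB. No genotype or drug differs between the windows. Time in culture goes together with the change of medium and with aggregation, and their separate parts were not tested. Each time point is 1 library of pooled cells. A first series gave 4 of the early and 3 of the late populations, and a second series, collected in parallel with single cells, gave the other 2 and 2. Because the time points stand in for replicates, a p-value here measures a difference between windows against the spread between time points within a window.

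Naive ES cells correspond to the pre-implantation epiblast and are held there by LIF acting through Stat3 and by a set of transcription factors that includes Nanog, Klf4, Esrrb and Tfcp2l1. On leaving that state they pass through a formative phase that resembles the epiblast just after implantation, in which Otx2 and Pou3f1 (Oct6) are induced, de novo DNA methyltransferases accumulate and FGF5 is secreted, while Pou5f1 (Oct4) and Sox2 are kept. FGF and ERK signalling drives this exit, and neural fate follows from the epiblast when BMP, Nodal and Wnt signals are low.

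Values were FPKM (sequenced fragments scaled to transcript length and library size), batch corrected with ComBat by the authors. Summed FPKM ran from 436982 to 572961 per population and 11396 to 12273 genes stood above 1 FPKM. The highest sum was that of the 2 h population, which stands apart from its neighbours in several genes below. Without it 2222 genes were higher and 3127 lower in the test that follows. The corrected values of some genes hold a fixed offset between the 2 series, whose origin was not tested: Fabp7 had 12.9 to 14.4 FPKM in the early populations of the first series and 0 in both of the parallel series. A list of 12 fibroblast markers, of the kind feeder cells express, summed to 782, 822, 717, 553, 336 and 353 FPKM at 0 (first series), 0 (parallel series), 1, 2, 8 and 9 h, to 121 at 22 h and to 54.3, 66.6, 30.9, 18.2 and 33.9 at 34, 38, 42.5, 54.5 and 60 h. None of the 12 was listed at 0 in any of the 11 populations. This sum fell over the same hours as the falling groups below, and its part in them was not tested. In a bulk population, fewer cells of a type and less RNA per cell cannot be told apart.

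Genes above 1 FPKM in at least 4 of the 11 populations were tested, 12306 of 13541, on log2(FPKM + 1). With limma and Benjamini-Hochberg adjustment over all of them, 2078 genes were higher at 34–60 h (16.9% of those tested) and 2872 lower (23.3%) at adjusted p below 0.05, 40.2% in all, and the median difference over all genes was -0.026. The split between rises and falls moved with the scaling: quantile normalization gave 2938 higher and 2327 lower, and centring each population on its median gave 3107 and 2344, each moving the median gene up by 0.10 on the log2 scale. Large changes, of at least 1 on the log2 scale, went mostly down: 270 genes rose by that much (2.19%) and 896 fell (7.28%). In 1235 genes (10%) all 5 late populations stood above all 6 early ones, and in 1803 genes (14.7%) all stood below, together 24.7%. Below, fold changes and log2 differences are on the log2(FPKM + 1) scale, which understates low genes, ± is the standard error, and 5 values in a row are FPKM at 34, 38, 42.5, 54.5 and 60 h.

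The largest rises were led by genes of the formative epiblast. Pim2, a serine/threonine kinase that promotes survival, was measured between 12.8 and 37.6 FPKM at 0–9 h (median 19.9) and at 90.98, 208, 297, 290.2 and 399 in the late window (log2 difference 3.40 ± 0.35, adjusted p = 5.01e-06). Dnmt3b, a de novo DNA methyltransferase, was measured between 20.1 and 66.3 FPKM at 0–9 h (median 29.99) and at 192, 341, 494, 373 and 405 (log2 difference 3.38 ± 0.28, adjusted p = 9.10e-07). Fgf5, the secreted factor that marks post-implantation epiblast, stood between 0.923 and 1.31 FPKM at 0–9 h (median 1.05) and at 10.04, 19.4, 35.1, 20.1 and 24 (log2 difference 3.35 ± 0.22, adjusted p = 2.09e-07). In each of the 3 the windows did not overlap, the 34 h population was the lowest of the late ones, and the rise came to 10.5-, 10.4- and 10.2-fold. Next in size came Tmem54 (3.35), the transcription factor Wt1 (3.28), Vrtn (3.19), Pou3f1 (3.16), the protocadherin Pcdh1 (2.67), the semaphorin Sema6a (2.61) and the zinc finger factor Sall2 (2.56).

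The largest falls were of connective tissue genes and of an imprinted pair. Lox, which cross-links collagen, was measured between 39.2 and 127 FPKM at 0–9 h (median 84.9) and at 1.07, 3.05, 0.375, 0.247 and 2.51 (log2 difference -5.13 ± 0.37, adjusted p = 3.60e-07). After it came the matrix genes Fbln2 (-4.60), Thbs1 (-4.47), Bgn (-4.43), Col1a2 (-4.39) and Col1a1 (-4.35), with S100a4 (-4.41) and Igfbp7 (-4.31). The neighbouring imprinted genes Igf2 and H19 fell by similar amounts (-4.57 and -4.32). Igf2 was at 12.8, 2.23, 6.27, 6.03 and 0 and H19 at 35.6, 13.7, 14.1, 15.6 and 2.73 in the late window (the 0 of Igf2 is a corrected value below 0), after medians of 133 and 344 FPKM. In all, 4 genes went from above 5 FPKM in all early populations to below 1 FPKM in all late ones: Csf1, the macrophage growth factor (5.55–22.99 FPKM early), Lrrc32 (6.86–14.4), Tinagl1 (5.44–18.8) and the collagen gene Col12a1 (9.37–34.3). No gene made the reverse move, from below 1 to above 5 FPKM.

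**Figure D1:**
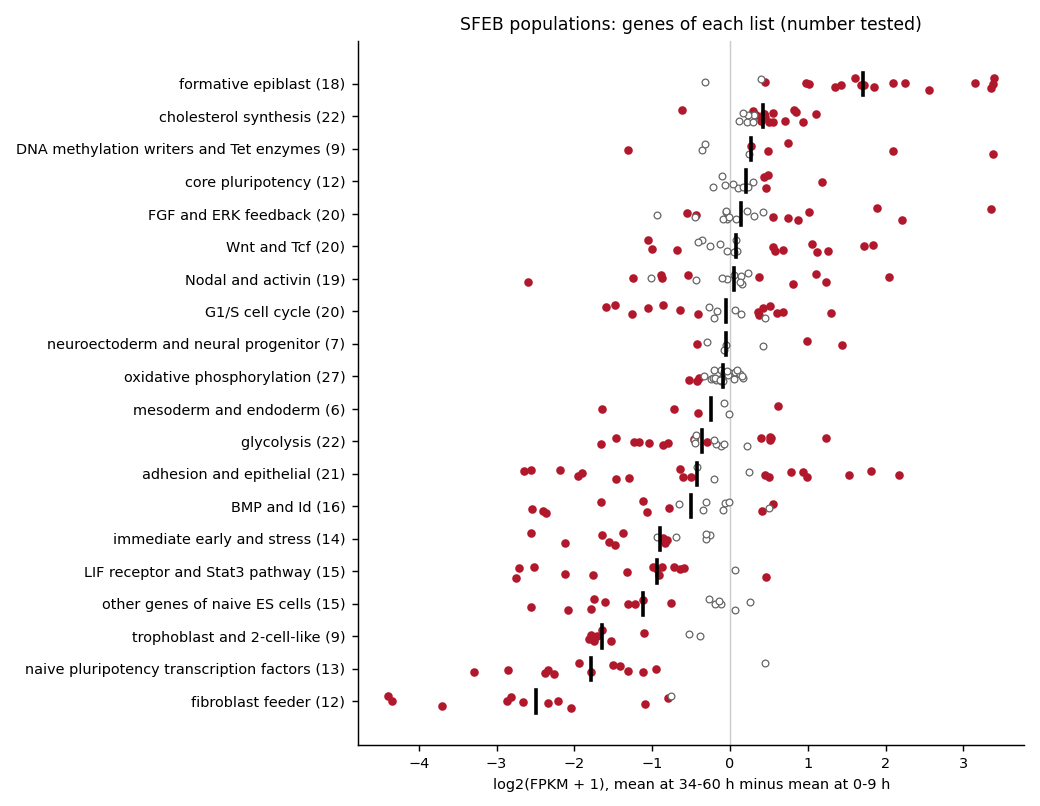
Each point is a gene of a list, placed by its log2(FPKM + 1) mean at 34–60 h minus that at 0–9 h (x axis, log2 units); red points passed adjusted p below 0.05, open points did not, and the black bar is the list's median. The lists run from the fibroblast markers at the bottom (median -2.50) through the naive transcription factors (-1.79) to the formative genes at the top (1.70).

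The transcription factors of the naive state fell together but to different depths. Of 13 tested, 12 fell (23.3% over all genes), 10 of them without overlap between windows (14.7% over all genes). None rose, and the median log2 difference was -1.79. Klf4 was measured between 10.5 and 55.3 FPKM at 0–9 h (median 41.98) and at 3.32, 4.27, 0.874, 0.749 and 2.76 (log2 difference -3.29 ± 0.43, adjusted p = 4.21e-05), the deepest fall of the group at 9.81-fold. Its 8 h and 9 h populations, at 13.2 and 10.5 FPKM, had already left the level of the first hours. Tbx3 was measured between 11.9 and 22.3 FPKM at 0–9 h (median 17.5) and at 3.101, 2.65, 0.6704, 0.655 and 1.36 (log2 difference -2.85 ± 0.24, adjusted p = 1.23e-06), and unlike Klf4 it was still at 17.7 FPKM at 8 h. Tcfcp2l1 (Tfcp2l1), a self-renewal factor downstream of LIF, was measured between 17.7 and 33.7 FPKM at 0–9 h (median 25.03) and at 7.44, 5.13, 2.36, 3.07 and 3.44 (log2 difference -2.38 ± 0.22, adjusted p = 1.87e-06). Klf5 (-2.34) and the orphan nuclear receptor Esrrb (-2.26) fell 5.08- and 4.803-fold, and in all of these the late values were lowest at 42.5 or 54.5 h.

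The best known of the group fell less far. Nanog, the homeodomain factor of the pluripotent epiblast, was measured between 109 and 217 FPKM at 0–9 h (median 173) and at 89.1, 66.6, 36.3, 60.6 and 80.6 (log2 difference -1.31 ± 0.21, adjusted p = 2.50e-04), a fall of 2.49-fold. Zfp42 (Rex1), the classical reporter of the naive state, stayed between 296 and 373 FPKM at 0–9 h (median 320.3), was still at 306 at 22 h, and then read 196, 129, 64.6, 68.9 and 67.9 (log2 difference -1.79 ± 0.24, adjusted p = 5.81e-05). Klf2 (-1.51), Prdm14 (-1.41), a repressor of FGF receptor genes, and Tcfap2c (-1.94) fell without overlap. Nr0b1 (Dax1) rose within the early window, from 19.8 FPKM at 0 h in the first series to 60.2 at 2 h, before it reached 27.9, 25.4, 15.4, 11.98 and 13.5, so its windows overlapped (log2 difference -1.12 ± 0.28, adjusted p = 0.005699). Nr5a2 also overlapped (-0.96, adjusted p = 0.00217). Gbx2 was the 1 member that did not pass: it read 5.604–14.8 FPKM early and 12.6–20.7 late (log2 difference 0.45 ± 0.21, adjusted p = 0.105), and it passed, upward, once each population was centred on its median (0.55, adjusted p = 0.0356).

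**Figure D2:**
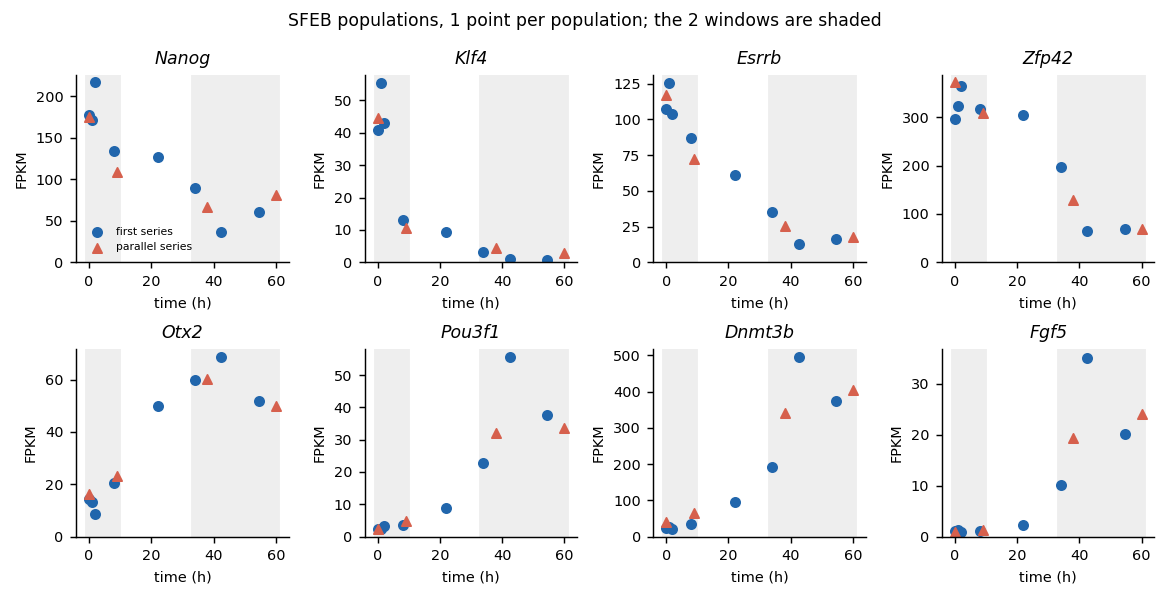
FPKM (y axis, from 0) against time in hours (x axis) for 4 naive and 4 formative genes, 1 point per population, circles for the first series and triangles for the parallel series, with both windows shaded. The upper row falls and the lower row rises, and the 22 h point lies between the windows for Esrrb, Otx2, Pou3f1, Dnmt3b and Fgf5.

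Promoter windows of 2 of these genes are shown because they hold the octamer, the POU-factor motif bound by the Pou5f1 family, and lie at genes that moved in opposite directions while Pou5f1 itself did not pass the test. Another POU-factor gene, Pou3f1, rose (3.16). The letters ATGCAAAT were searched on both strands of the RefSeq windows of build GRCm38.p6, 250 bases before to 50 after the annotated start. They occur in 532 of 27025 windows (1.97%), in 1 of the 9 naive factors with a window (Zfp42) and in 1 of the 12 formative genes with one (Pim2). The same letters occur at Spp1, Srebf2, Sox1, Cdx2, Col3a1 and Egr2, each the 1 gene of another list, so they are not particular to these 2 lists. The motif is in capitals, on either strand, and each run reads 5′ to 3′ on the strand of its gene.
Zfp42, chr8:43306960-43307259, minus strand, motif beginning at -186 from the start: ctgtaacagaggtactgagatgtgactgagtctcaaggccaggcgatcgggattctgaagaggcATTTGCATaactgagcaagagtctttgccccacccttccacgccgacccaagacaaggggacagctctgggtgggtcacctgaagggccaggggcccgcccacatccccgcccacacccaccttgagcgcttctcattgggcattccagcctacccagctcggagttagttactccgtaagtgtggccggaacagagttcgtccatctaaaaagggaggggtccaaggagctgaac
Pim2, chrX:7878056-7878355, plus strand, motifs beginning at -202 and -123: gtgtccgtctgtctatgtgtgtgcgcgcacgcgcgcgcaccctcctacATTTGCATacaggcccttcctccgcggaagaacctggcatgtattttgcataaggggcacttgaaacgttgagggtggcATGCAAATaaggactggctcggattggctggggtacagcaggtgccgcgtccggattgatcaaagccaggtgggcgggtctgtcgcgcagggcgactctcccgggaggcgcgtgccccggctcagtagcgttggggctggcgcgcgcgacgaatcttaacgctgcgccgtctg
A match in these windows is a description of the sequence and not of a bound site.

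Other genes of naive ES cells split into a set that fell and a set that did not pass. Of 15 tested, 9 fell and none rose (median -1.12), against 23.3% and 16.9% of all genes. Tcl1, a co-activator of Akt, was measured between 38.9 and 73.6 FPKM at 0–9 h (median 47.3) and at 16.5, 13.3, 4.1, 4.69 and 5.77 (log2 difference -2.56 ± 0.29, adjusted p = 1.29e-05). Spp1 (osteopontin) was measured between 416 and 749.7 FPKM at 0–9 h (median 559) and at 334, 275, 120.3, 57.4 and 71.6 (log2 difference -2.08 ± 0.38, adjusted p = 6.99e-04). Both were higher at 34 and 38 h than at 42.5 h and after. The threonine dehydrogenase gene Tdh, whose product supplies one-carbon metabolism in mouse ES cells, fell from a median of 242 FPKM to 129, 127, 97.9, 70.5 and 88.5 (log2 difference -1.21 ± 0.15, adjusted p = 3.27e-05). Fbxo15 (-1.75), Jam2 (-1.60), the imprinting factor Zfp57 (-1.12) and 2410004A20Rik (-1.79) also fell, as did Pecam1 (-0.76, adjusted p = 0.0177), whose call ended without the 42.5 h population (adjusted p = 0.0534). The developmental pluripotency genes behaved differently: Dppa2, Dppa3, Dppa4 and Dppa5a did not pass, with log2 differences of 0.26, -0.27, 0.059 and -0.12 and adjusted p from 0.383 to 0.815. Dppa2 read 28.4–72.9 FPKM early, with its highest values at 8 and 9 h, and 74.2, 67.03, 46.7, 43.7 and 40.6 late. Dppa5a has near-identical copies and its values are uncertain. In the later populations, from 68 to 216 h, Dppa2 and Dppa4 ranged from 1.15 to 28.6 and from 4.42 to 35.6 FPKM.

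Core pluripotency genes did not fall. Of 12 tested, 4 rose and none fell, with a median of 0.20, against 16.9% and 23.3% of all genes. The count of rises went to 2 without the first-series 0 h, the 34 h, the 38 h or the 42.5 h population. Pou5f1, shared by naive and primed cells, read 385–571 FPKM early and 523, 477, 516, 449.6 and 474 late, with overlapping windows (log2 difference 0.10 ± 0.10, adjusted p = 0.474). Sox2 read 95.6–122 early and 129, 111, 87.4, 89.1 and 72.2 late (log2 difference -0.22 ± 0.13, adjusted p = 0.194). Sox2 passed once the 34 h population was left out (adjusted p = 0.0453), and its last value, at 60 h, was its lowest of the 11. Lin28a, which blocks let-7 processing, was the 1 gene of the list whose windows did not overlap: between 43.1 and 126 FPKM at 0–9 h (median 74.1) and 144, 147, 184, 173 and 179 (log2 difference 1.18 ± 0.22, adjusted p = 6.78e-04). The other 3 that rose, Trim71 (0.49), Zfp281 (0.46) and Zscan10 (0.43), stood close to their late range by 8 and 9 h, and against those early populations alone they differed by 0.26, 0.084 and 0.078 and did not pass. Zfp281 and Zscan10 each lost the call without any 1 of 5 populations (adjusted p up to 0.0638 and 0.0752; 0, 34, 38 and 42.5 h for both, with 1 h for Zfp281 and the parallel 0 h for Zscan10). Tdgf1 (Cripto), the Nodal co-receptor, dipped and came back in part: it read 347, 392, 325, 240.0, 126 and 149 FPKM through the early window and 240.1, 239.6, 234, 193 and 219 late. Its difference between windows was -0.11 (adjusted p = 0.764), and against the 8 and 9 h populations alone it was 0.71 in the other direction (adjusted p = 0.00177).

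Formative epiblast genes rose as a group. Of 18 tested, 16 rose (16.9% over all genes), 15 of them without overlap (10% over all genes). None fell, and the median was 1.70. Otx2, the homeodomain factor that directs exit from the naive state, was measured between 8.73 and 23.1 FPKM at 0–9 h (median 15.3), at 49.9 at 22 h and at 59.9, 60.3, 68.8, 51.7 and 49.98 (log2 difference 1.85 ± 0.19, adjusted p = 5.20e-06). Pou3f1 (Oct6), a POU factor that promotes neural fate, was measured between 2.31 and 4.9 FPKM at 0–9 h (median 2.803), at 8.95 at 22 h and at 22.8, 32.2, 55.5, 37.7 and 33.6 (log2 difference 3.16 ± 0.20, adjusted p = 2.09e-07). At 22 h Otx2 was just under its lowest late value, while Pou3f1 was below every late value. Sall2, a zinc finger factor, was measured between 2.63 and 6.65 FPKM at 0–9 h (median 3.18) and at 19.3, 22.6, 33.5, 31.95 and 28.4 (log2 difference 2.56 ± 0.19, adjusted p = 5.13e-07). The neural-plate factors Zic2 (2.25), Zic5 (1.61) and Sox3 (1.69) rose as well. Sox3 first dipped to 1.35 and 1.09 FPKM at 8 and 9 h and then climbed through the late window, to 4.94, 7.98, 11.8, 9.19 and 12.6.

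Further members rose by smaller amounts. The epithelial factor Grhl2 (1.42), Lin28b (1.35), Tead2 (0.98) and Foxd3 (1.02) did not overlap between windows. Foxd3 was highest at 42.5 h and had come down to 9.35 FPKM by 60 h, while Tead2 and Lin28b were highest at 60 h (80.03 and 26.7 FPKM). Wnt8a was highest at 54.5 and 60 h: it read 4.44, 5.71, 5.41, 10.5 and 20.8, after 0.896–3.41 FPKM early (log2 difference 1.72 ± 0.32, adjusted p = 7.88e-04). Tcf15 rose by 0.45 (adjusted p = 0.0358), with a highest value of 91.7 FPKM at 22 h. It lost the call without any 1 of 7 populations (both 0 h ones and 1, 34, 38, 42.5 and 54.5 h; adjusted p up to 0.0955). Sox4 (0.40, adjusted p = 0.07503) and Car12 (-0.32, adjusted p = 0.228) did not pass. Sox4 at 2 h read 28.3 FPKM, about as high as any late value, and passed once that population was left out (adjusted p = 5.63e-04).

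Genes that write DNA methylation rose, and of the Tet enzymes that oxidise it Tet2 fell. Dnmt3a and Dnmt3b are also counted in the formative list and Tet2 among the other naive genes. Dnmt3a was measured between 16.3 and 39.8 FPKM at 0–9 h (median 17.5), at 78.5 at 22 h and at 98.9, 104, 115, 93.5 and 68.9 (log2 difference 2.1 ± 0.22, adjusted p = 5.09e-06), and Dnmt3b (above) rose further and later. The maintenance genes Dnmt1 and Uhrf1 rose by 0.28 and 0.48 (adjusted p = 0.0487 and 0.0153), with low 2 h values of 38.2 and 65.9 FPKM in the early window. Dnmt1 lost its call in 8 of the 11 settings that each leave out 1 population (any but the parallel 0 h, 2 h and 8 h ones; adjusted p up to 0.0927). Dnmt3l, the catalytically inactive partner of the de novo enzymes, did not pass (-0.35, adjusted p = 0.241) and declined within the late window, from 87.2 FPKM at 34 h to 29.5 at 60 h. Tet2 fell from a median of 16.8 FPKM to one of 4.997 (log2 difference -1.31 ± 0.26, adjusted p = 0.00136). Tet1 and Tet3 did not pass (-0.32 and 0.24), but Tet1 passed, downward, once the 2 h population was left out (adjusted p = 0.0255). Tdg, the glycosylase that excises oxidised methylcytosine, rose by 0.74 (adjusted p = 0.00162) without overlap. In all, 5 of the 9 genes of this list rose and 1 fell, where 16.9% of all genes tested rose and 23.3% fell. With a term for series 4 rose, without Dnmt1 (adjusted p = 0.0605).

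The LIF and Stat3 pathway fell at the level of receptors, transducer and targets. Of 15 tested, 13 fell and 1 rose (median -0.94), against 23.3% and 16.9% of all genes. Among the receptors, Osmr was measured between 3.77 and 13.6 FPKM at 0–9 h (median 9.38) and at 0.462, 0.772, 0.1297, 0.129 and 0.355 (log2 difference -2.71 ± 0.30, adjusted p = 9.40e-06), Lifr went from 10.6–18.2 to 3.55–11.3 FPKM (-0.99, adjusted p = 0.00174) and the shared subunit Il6st (gp130) from 13.7–28.2 to 7.36–12.8 (-0.94, adjusted p = 0.00219). Stat3, the transducer, was measured between 18.4 and 35.3 FPKM at 0–9 h (median 29.2) and at 9.37, 6.61, 6.81, 7.51 and 6.57 (log2 difference -1.76 ± 0.16, adjusted p = 1.71e-06), and the kinase Jak1 fell by 0.92 with no overlap. Both had begun to fall by 8 and 9 h, when Stat3 read 22.6 and 18.4 FPKM. Among the targets, Socs3, the feedback inhibitor, was measured at 46.98 and 27.1 FPKM in the 0 h populations, at 9.71 at 2 h and at 1.95, 2.46, 1.29, 2.12 and 1.93 late (log2 difference -2.52 ± 0.45, adjusted p = 5.14e-04). Bcl3 was measured between 10.1 and 26.7 FPKM at 0–9 h (median 19.8) and at 3.04, 1.97, 0.867, 1.82 and 1.62 (log2 difference -2.75 ± 0.26, adjusted p = 2.49e-06). Socs3 was thus well below its 0 h values by 2 h, whereas Bcl3 read at least 10.1 FPKM in every early population. Pim1 (-0.88), Pim3 (-1.32) and Junb (-2.12) also fell, and their relative Pim2, as above, rose. Lif itself fell by 0.65 (adjusted p = 0.00427). Socs2 was the 1 that rose (0.46, adjusted p = 0.0372); it had reached 32.9 FPKM by 2 h, and it lost the call without any 1 of the 8 populations other than 2, 8 and 9 h (adjusted p up to 0.0886). Ptpn11 (Shp2) did not pass (0.07, adjusted p = 0.588).

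Cish, a SOCS-family inhibitor and a textbook STAT target, fell by 0.72 (adjusted p = 0.0146), and did not pass against the 8 and 9 h populations alone (-0.13, adjusted p = 0.568). Its promoter window is shown as the 1 window of the 14 available for this list that holds a palindromic STAT motif, TTCCNGGAA, which occurs in 364 of the 27025 windows (1.35%). The motif, in capitals, lies at the annotated start.
Cish, chr9:107296409-107296708, plus strand: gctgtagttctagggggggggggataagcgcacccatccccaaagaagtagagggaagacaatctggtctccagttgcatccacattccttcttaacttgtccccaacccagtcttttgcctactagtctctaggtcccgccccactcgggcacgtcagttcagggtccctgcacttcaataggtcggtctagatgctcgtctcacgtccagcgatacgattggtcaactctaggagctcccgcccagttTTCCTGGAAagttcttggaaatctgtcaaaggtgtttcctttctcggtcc
The other 13 windows lack these letters, which says nothing of sites elsewhere.

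Immediate early and stress genes were mostly lower in the late window, several of them after a peak at 1 or 2 h. Of 14 tested, 9 fell and none rose (median -0.89), against 23.3% and 16.9% of all genes. Fos read 5.19, 4.81, 19.5, 7.36, 3.21 and 0.767 FPKM through the early window, highest at 1 h, and 0.801, 0.608, 0.807, 1.01 and 1.48 late (log2 difference -1.64 ± 0.43, adjusted p = 0.00771). Against 8 and 9 h alone it did not pass (adjusted p = 0.227). Ier3 peaked at 2 h, at 59.6 FPKM, and read 3.47, 5.36, 1.79, 1.84 and 4.61 late (log2 difference -2.56 ± 0.32, adjusted p = 2.99e-05). Jun (-1.56) and Junb peaked at 2 h too. Egr1, highest at 1 h with 72.3 FPKM, did not pass (log2 difference -0.93 ± 0.47, adjusted p = 0.128), and passed once the 9 h population was left out (adjusted p = 0.0096). Hspa1a and Hspa1b, near-identical copies, are uncertain.

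FGF signalling genes that rose included ligands and feedback genes. Of 20 tested, 7 rose and 2 fell (median 0.15), where 16.9% of all genes tested rose and 23.3% fell. Besides Fgf5, Fgf8 was measured between 0.362 and 2.07 FPKM at 0–9 h (median 0.629) and at 3.36, 3.97, 6.43, 6.92 and 8.19 (log2 difference 1.89 ± 0.23, adjusted p = 2.28e-05), climbing through the late window, and Fgf15, an FGF of the early neural tube, was measured between 3.21 and 6.196 FPKM at 0–9 h (median 5.27) and at 23.4, 29.6, 29.5, 25.4 and 24.8 (log2 difference 2.22 ± 0.14, adjusted p = 2.09e-07). Fgf4, the autocrine ligand of ES cells, read 27.7–47.03 FPKM early and 44.6, 43.6, 41.8, 29.6 and 25.8 late (log2 difference -0.057 ± 0.17, adjusted p = 0.811). The main receptor gene Fgfr1 read 31.3–39.04 FPKM early and 31.3–38.6 late (-0.044, adjusted p = 0.728), and Fgfr4 fell by 0.56 at a low level. Of the ERK feedback genes, Dusp6, an ERK phosphatase, rose without overlap, from 11.6–23.6 FPKM to 25.6, 28.7, 41.3, 45.1 and 25.4 (log2 difference 1.02 ± 0.19, adjusted p = 8.56e-04), and Il17rd (Sef) rose by 0.74. Etv1 rose by 0.88, but it was at its late level by 8 h (8.42 FPKM). Dusp6, Il17rd and Etv1 did not pass against 8 and 9 h alone (0.59, 0.32 and 0.088). Spry2 (-0.0085), Spry4 (-0.45) and Etv5 (-0.048) did not pass. Spry1 (0.55) and Etv4 (-0.43) passed at adjusted p = 0.0259 and 0.0415. Spry1 lost the call without the 8, 42.5, 54.5 or 60 h population (adjusted p up to 0.0676) and Etv4 without any of 8 populations (1, 2, 8, 9, 34, 38, 42.5 or 54.5 h; up to 0.106), or with a term for series (0.0536).

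Nodal and activin genes moved in both directions, 5 up and 5 down of 19, where 16.9% of all genes tested rose and 23.3% fell, so the share of falls was close to that of all genes. The ligands Nodal (-0.045, adjusted p = 0.857) and Gdf3 (0.15, adjusted p = 0.309) did not pass, and their windows overlapped at 20.7–43.8 and 20.7–33.4 FPKM and at 37.6–58.6 and 46.1–55.7. Inhbb, the activin B subunit, fell from 9.55–19.99 FPKM to 4.66, 3.57, 0.518, 0.367 and 1.304 (log2 difference -2.60 ± 0.34, adjusted p = 4.52e-05). Foxh1, the DNA-binding partner of Smad2 and Smad3, rose from 13.97–27.1 to 34.9, 38.8, 42.8, 46.1 and 45.8 (log2 difference 1.11 ± 0.16, adjusted p = 1.08e-04), and Skil (SnoN), an inhibitor of the same Smads, from 21.4–28.3 to 53.4, 69.2, 63.7, 56.7 and 47.3 (log2 difference 1.24 ± 0.11, adjusted p = 1.86e-06). Inhbb, Foxh1 and Skil did not overlap between windows. The convertases that process Nodal, Furin (-1.25) and Pcsk6 (-0.88), fell, as did Smad3 (-0.88). Lefty1, the feedback antagonist, read 31.1 and 44.3 FPKM at 8 and 9 h, below its values at 0 to 2 h, and 138, 109, 65.3, 98.5 and 135 late (log2 difference 0.81 ± 0.27, adjusted p = 0.0252). Its call ended without the 34 h or the 60 h population (adjusted p up to 0.0637). Smad7 (-0.54) and the receptor Acvr2b (0.37) also passed. Smad7 lost the call without the 42.5 h population and Acvr2b without the 42.5 or 54.5 h one (adjusted p up to 0.0592 and 0.0763).

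BMP signalling genes fell at the ligand and the target. Of 16 tested, 7 fell and 2 rose (median -0.50), where 23.3% of all genes tested fell and 16.9% rose. Bmp4 was measured between 4.61 and 13.8 FPKM at 0–9 h (median 7.05) and at 2.37, 2.66, 1.59, 1.26 and 1.02 (log2 difference -1.66 ± 0.23, adjusted p = 5.94e-05), after a highest value at 8 h, and Bmp7 fell by 1.12. Id1, a direct BMP target that holds back neural differentiation of ES cells, was measured between 22.5 and 52.95 FPKM at 0–9 h (median 43.8) and at 8.901, 6.57, 5.52, 5.31 and 5.76 (log2 difference -2.40 ± 0.21, adjusted p = 1.71e-06). Id3 was measured between 21.4 and 105 FPKM at 0–9 h (median 43.1), highest at 1 and 2 h, and at 13.5, 8.91, 4.205, 4.39 and 9.704 (log2 difference -2.55 ± 0.39, adjusted p = 1.65e-04). The inhibitory Smad6 fell by 1.06. Grem1, a secreted BMP antagonist also made by fibroblasts, fell from 4.45–18.4 FPKM to 0.891, 2.399, 1.304, 0.548 and 0.557 (log2 difference -2.37 ± 0.28, adjusted p = 2.11e-05). Bmpr1a, the receptor, rose by 0.56 without overlap. The other rise, Msx1 (0.42), lost the call without any 1 of 7 populations (both 0 h ones, 8, 9, 34, 38 or 42.5 h; adjusted p up to 0.112). Id2 did not pass (0.51, adjusted p = 0.0812) but passed without the 2 h or the 34 h population (adjusted p down to 0.0147) and under quantile normalization and median centring (0.0322 and 0.0454).

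Of 20 Wnt pathway genes tested, 8 rose and 3 fell, where 16.9% of all genes tested rose and 23.3% fell. Lef1 was measured between 1.96 and 6.19 FPKM at 0–9 h (median 3.24) and at 12.6, 14.1, 19.5, 14.6 and 14.2 (log2 difference 1.84 ± 0.22, adjusted p = 1.68e-05), and Tcf7 was measured between 14.9 and 21.5 FPKM at 0–9 h (median 20.6) and at 35.2, 38.7, 51.3, 46.99 and 48.4 (log2 difference 1.12 ± 0.12, adjusted p = 8.94e-06). Fzd7 rose from 15.9–28.01 FPKM to 54.2, 50.5, 55.4, 54.2 and 44.04 (log2 difference 1.26 ± 0.14, adjusted p = 9.98e-06) and Fzd2 by 1.05, whereas Fzd5 fell by 1.01, each without overlap. Tcf7l1 (Tcf3), the repressor that opposes the naive network, went from 13.9 FPKM at 0 h to 36.6 and 37.4 at 8 and 9 h and then held at 36.3–38.7 (log2 difference 0.68 ± 0.21, adjusted p = 0.0195). Against the 8 and 9 h populations alone its difference was 0.01 (adjusted p = 0.928). Axin2, a general target of the pathway, did not pass (-0.043, adjusted p = 0.837), nor did Ctnnb1 (beta-catenin, 0.085, adjusted p = 0.462).

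Glycolysis genes moved both ways, and much of their difference was in place by 8 and 9 h. Of 22 tested, 9 fell and 5 rose (median -0.36), against 23.3% and 16.9% of all genes. Against the 8 and 9 h populations alone the median was 0.07. Pfkp, a phosphofructokinase, was measured between 35.3 and 75.1 FPKM at 0–9 h (median 49.8) and at 27.6, 20.7, 13.4, 13.8 and 13.2 (log2 difference -1.46 ± 0.21, adjusted p = 1.10e-04). Pgk1 was measured between 267 and 528 FPKM at 0–9 h (median 381) and at 191, 234, 177, 189 and 253 (log2 difference -0.86 ± 0.17, adjusted p = 0.00118), and Hk1 fell by 1.17. Pfkp and Hk1 also passed against 8 and 9 h alone (-1.05 and -0.66). Slc16a3 (Mct4), the lactate exporter, shows the return: it read 60.6, 76.9, 59.3, 39.3, 9.695 and 18.3 FPKM early, then 49.4, 79.6, 119.7, 87.2 and 107. Its windows overlapped (log2 difference 1.23 ± 0.44, adjusted p = 0.0363), the call ended without any 1 of 7 populations (2, 8, 9, 38, 42.5, 54.5 or 60 h; adjusted p up to 0.0888), and against 8 and 9 h it differed by 2.58 (adjusted p = 7.50e-04). Among the 5 rises is also Slc16a1 (0.39), another lactate transporter, whose call ended without the 8, 42.5, 54.5 or 60 h population (adjusted p up to 0.0854), and the count of rises fell to 3 without the 8, 42.5, 54.5 or 60 h one. Pdk1, which diverts pyruvate from mitochondria, rose by 0.51 without overlap, and Ldhb by 0.53. The glucose transporter genes differed: Slc2a3 fell (-1.05, adjusted p = 0.00628), with 1 value far below the others at 42.5 h (45.5 FPKM), and Slc2a1 did not pass (-0.12, adjusted p = 0.599). Oxidative phosphorylation genes stayed near the median of all genes: 3 of 27 fell (Cox5a at -0.52, Uqcrc1 at -0.43 and Cox6a1 at -0.40), none rose and their median was -0.09. Cox6a1 lost the call without the 42.5, 54.5 or 60 h population (adjusted p up to 0.0839).

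Cholesterol synthesis genes rose together by moderate amounts. Of 22 tested, 15 rose and 1 fell, against 16.9% and 23.3% of all genes. Their median was 0.42 where all genes had -0.026. Sqle, which makes the first oxygenated sterol precursor, was measured between 24.99 and 40.1 FPKM at 0–9 h (median 28.9) and at 54.8, 54.9, 74.5, 78.7 and 65.6 (log2 difference 1.11 ± 0.14, adjusted p = 2.62e-05). Idi1 (0.85), Nsdhl (0.83) and Cyp51 (0.71) rose without overlap between windows. Most members were highest at 42.5 or 54.5 h. The exception was Ebp, a sterol isomerase, which fell from 12.8–20.6 FPKM to 11.9, 11.2, 8.55, 9.14 and 11.3 (log2 difference -0.62 ± 0.13, adjusted p = 0.00167). The regulator Srebf2 (0.30, adjusted p = 0.0928) did not pass.

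Of the adhesion genes, 8 of 21 rose and 10 fell (16.9% and 23.3% over all genes), with junction genes of epithelia among the rises and mesenchymal and basement membrane genes among the falls. Cdh1 (E-cadherin) was measured between 74.9 and 114 FPKM at 0–9 h (median 85.2) and at 158, 171, 209, 181 and 165 (log2 difference 0.99 ± 0.12, adjusted p = 2.68e-05), and Epcam was measured between 47.5 and 75.01 FPKM at 0–9 h (median 59.4) and at 115, 102, 126, 116 and 109.6 (log2 difference 0.94 ± 0.12, adjusted p = 2.86e-05). The tight junction genes Cldn6 (1.53) and Cldn7 (1.81) rose, Cldn7 after a low of 2.58 FPKM at 9 h to 6.34, 15.6, 29.6, 31.01 and 35.9. Esrp1, which splices epithelial isoforms, rose from 3.12–9.55 FPKM to 21.6, 26.9, 32.3, 24.7 and 24.1 (log2 difference 2.17 ± 0.21, adjusted p = 3.70e-06). On the other side, Vim was measured between 206 and 590.4 FPKM at 0–9 h (median 478) and at 72.8, 69.8, 58.9, 71.1 and 67.2 (log2 difference -2.56 ± 0.24, adjusted p = 2.24e-06), Fn1 fell by 1.95, and the basement membrane collagens Col4a1 (-2.18) and Col4a2 (-2.65) fell too. The repressors of E-cadherin Snai1 (-1.91) and Zeb1 (-1.3) fell without overlap. Cdh2 (0.45) and Itga6 (0.51) rose and Krt8 (-0.64) fell with calls that ended without 1 population: 42.5 or 54.5 h for Cdh2, 54.5 h for Itga6, and 34 or 38 h for Krt8 (adjusted p up to 0.0569, 0.0507 and 0.0702).

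Of the 12 fibroblast markers, 11 fell without overlap (median -2.50), against 14.7% of all genes. They fell over the same hours as Vim, Fn1 and the collagens. The part of fibroblasts in those falls was not tested. Col3a1 was measured between 56.4 and 108 FPKM at 0–9 h (median 81.3) and at 9.98, 8.17, 4.05, 3.11 and 3.39 (log2 difference -3.70 ± 0.26, adjusted p = 3.03e-07). Pdgfrb (-2.33), Prrx1 (-2.86) and Thy1 (-2.81) fell as well. Dcn did not pass (log2 difference -0.76 ± 0.32, adjusted p = 0.0741), with late values of 4.89, 6.97, 6.87, 2.51 and 1.75, and passed once the 38 h population was left out (adjusted p = 0.0466).

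Cell cycle genes of G1 and S phase split evenly, 7 up and 7 down of 20, where 16.9% of all genes tested rose and 23.3% fell. Mycl1, of the Myc family, was measured between 1.92 and 3.67 FPKM at 0–9 h (median 2.93) and at 6.48, 8.54, 8.86, 9.08 and 8.59 (log2 difference 1.3 ± 0.14, adjusted p = 6.72e-06). Ccne2 (0.68), Cdk2 (0.37) and Cdk4 (0.51) rose without overlap, and Ccne1 rose by 0.43. Cdkn1a (p21), an inhibitor of those kinases, was measured between 47.2 and 129 FPKM at 0–9 h (median 82.7) and at 28.5, 22.7, 23.1, 25.3 and 28.8 (log2 difference -1.59 ± 0.20, adjusted p = 2.93e-05). Ccnd3 was measured between 87.2 and 126 FPKM at 0–9 h (median 115) and at 74.2, 52.4, 37.6, 36.3 and 37.7 (log2 difference -1.26 ± 0.17, adjusted p = 5.48e-05), and Ccnd2 (-1.47) and Cdkn2a (-1.05) fell too. Ccnd1 did not pass (-0.17, adjusted p = 0.461). Cdkn1c, another kinase inhibitor, rose by 0.60, so the inhibitors did not share a direction. Myc read 5.56–26.9 FPKM early and 18.2, 18.7, 20.7, 13.6 and 9.92 late (log2 difference 0.45 ± 0.31, adjusted p = 0.268), and it passed without the 9 h population (adjusted p = 0.0359). Mycn rose by 0.36 (adjusted p = 0.0276), a call that ended without the 8, 38 or 42.5 h population (up to 0.0857).

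Genes of later lineages were tested in part. Of the neural list, 7 of the 14 in the file passed the filter on low values. Of these 2 rose and 1 fell, where 16.9% of all genes tested rose and 23.3% fell. The rises were Sox11, from 3.46–4.201 FPKM to 8.28, 9.36, 14.2, 15.5 and 12.8 (log2 difference 1.44 ± 0.15, adjusted p = 4.76e-06), and Sox1, the earliest neuroectoderm marker, from 1.01–2.105 to 4.03, 2.85, 2.28, 9.63 and 3.96 (log2 difference 0.99 ± 0.25, adjusted p = 0.00513). Sox1 was highest at 54.5 h within the window, and from 68 h on it ran from 11.4 to 51.4 FPKM. Pax6 did not pass (log2 difference 0.43 ± 0.28, adjusted p = 0.238). Tubb3 fell by 0.42 (adjusted p = 0.0427) and lost the call without any 1 of 8 populations (any but the parallel 0 h, 9 h and 34 h ones; up to 0.121). The 7 untested members, among them Hes5 and Lhx2, read at most 2.16 FPKM in any of the 11 populations. Of the mesoderm and endoderm list, 6 of 11 were tested, of which 1 rose and 3 fell, against the same shares of all genes. Eomes rose by 0.61, to 1.73, 2.16, 3.08, 2.33 and 4.32, while Gata6 (-0.72) and Pdgfra (-1.64, from 2.43–4.97 FPKM to 1.08, 0.696, 0.285, 0.347 and 0.283) fell without overlap and Hhex fell by 0.41. Hhex lost the call without the 0 h population of the first series, 42.5 or 60 h (adjusted p up to 0.0618).

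Genes of the 2-cell-like state, a rare totipotent-like fraction of ES cultures, fell, and of the trophoblast genes tested only Tead4 fell. Of 9 trophoblast and 2-cell genes tested, 7 fell and none rose (median -1.65), against 23.3% and 16.9% of all genes. The trophoblast genes Gata3 and Krt7 did not pass. Tead4, a trophectoderm factor, was measured between 3.26 and 6.44 FPKM at 0–9 h (median 5.72) and at 0.848, 0.7997, 0.677, 0.822 and 0.671 (log2 difference -1.81 ± 0.15, adjusted p = 8.81e-07). Zscan4c read 8.61–16.6 FPKM early, 11.3 at 22 h and 7.73, 3.401, 1.51, 2.58 and 2.298 late (log2 difference -1.75 ± 0.27, adjusted p = 1.53e-04). Zscan4d and Zscan4f gave -1.65 and -1.70, and Tcstv1 and Tcstv3 -1.53 and -1.79. These are near-identical copies whose reads the counting could split, so their separate values are uncertain and they are not independent.

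The share of the change reached at a given hour varied between the groups, and no difference between groups was tested. Over members with a large call, the share of the change between the mean of the 0 h populations and the mean of the late window that had been reached was 43.7% at 8 h and 76.3% at 22 h for the LIF and Stat3 genes. It was 13.7% and 55.8% for the formative genes and 14.8% and 29.8% for the naive transcription factors. At 9 h these 2 lists stood at 25.5% and 26.3%. All large falls stood at 28.2% at 8 h and 38.9% at 9 h, and all large rises at 1.06% and 16.9%. Other naive genes stood at 7.35% at 22 h, against 64.2% for all 896 large falls and 43.4% for all 270 large rises. At 34 h the naive factors had reached 67.3%, the other naive genes 41.6%, the formative genes 83.2% and the LIF and Stat3 genes 92.4%. All large falls stood at 90.9% at 34 h and all large rises at 79.8%. The LIF and formative shares at that hour were thus close to those of all large changes in their direction. At 8, 9 and 22 h the LIF and Stat3 genes stood at 43.7%, 52.3% and 76.3%, the glycolysis genes at 40.2%, 69.1% and 49.2% and the immediate early genes at 35.8%, 54.5% and 74.4%, each over 6 genes. No share is given for the trophoblast and 2-cell genes, whose 0 h means differed between the series (0.33 and -0.33 on the log2 scale about their mean). Within the first series their mean stood at 0.28 at 8 h, -0.27 at 22 h, -0.68 at 34 h and -1.60 at 42.5 h. The only 22 h population is of the first series, while the 0 h mean is over both. The shares have no error, and the late window that sets the end point was also used to choose the large calls.

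**Figure D3:**
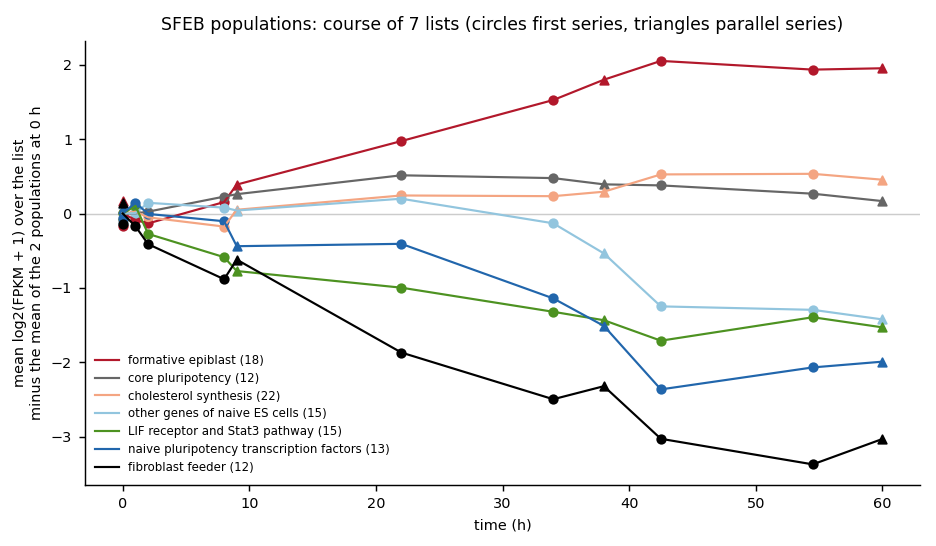
Mean log2(FPKM + 1) over each list minus the mean of the 0 h populations (y axis, log2 units) against time in hours (x axis) for 7 lists, circles for the first series and triangles for the parallel series. The LIF and Stat3 genes lie at -0.59 and the naive factors at -0.10 at 8 h, and at 42.5 h they lie at -1.71 and -2.36.

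The same ES line was also differentiated as an adherent monolayer in N2B27 medium, in a separately normalized table, with 3 populations at 0–8.5 h and 3 at 35.5–53.5 h. With fewer populations, 336 genes were higher there (2.82%) and 585 lower (4.91%) of 11915 tested and quantile normalization gave 564 and 341. Windows there did not overlap in 1336 genes upward (11.2%) and 2346 downward (19.7%). Leaving out the 0, 2.5, 8.5, 35.5, 41.5 or 53.5 h population in turn gave 72, 24, 186, 217, 178 and 505 higher genes and 163, 46, 351, 301, 390 and 1164 lower ones. Of the large SFEB rises that were tested there, 93.8% (228 of 243) were positive in the adherent culture, against 37.9% of all genes tested in both (4434 of 11697), and 93.9% of the large falls (757 of 806) were negative. Over all SFEB calls, large or not, 64.9% of the rises and 83.8% of the falls had the same sign there, and 10.7% and 17.6% also passed in that direction. Formative genes rose in both: 12 of 17 passed in the adherent culture and all 17 were positive (median 1.69), with Pou3f1 at 3.76 and Pim2 at 3.55. Naive factors fell in both, 10 of 13 (median -1.34), but Klf2, at -1.51 in SFEB, read -0.25 in the adherent culture (adjusted p = 0.626). H19, at -4.32 in SFEB, read -0.11 in the adherent culture (adjusted p = 0.821). Glycolysis genes had a median of -0.36 in SFEB and 0.31 in the adherent culture, where 6 rose and 2 fell, among the rises Slc2a1 (1.42, adjusted p = 0.01401). Cholesterol genes, 15 of which rose in SFEB, were positive in 20 of 22 cases there but only 2 passed. Fibroblast markers, 11 in that table, summed to 340 FPKM at 0 h and 61.3 at 53.5 h. In all, 14 genes passed in both cultures with opposite signs, and the 5 with the largest product of differences, Dcxr, Gm1673, Sdc4, Ltb4r2 and Cpz, fell in SFEB (-1.11, -1.02, -0.75, -0.64 and -0.61) and rose in the adherent culture (1.09, 1.18, 1.49, 1.34 and 1.26). The difference between cultures was not tested, because the tables were normalized separately.

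**Figure D4:**
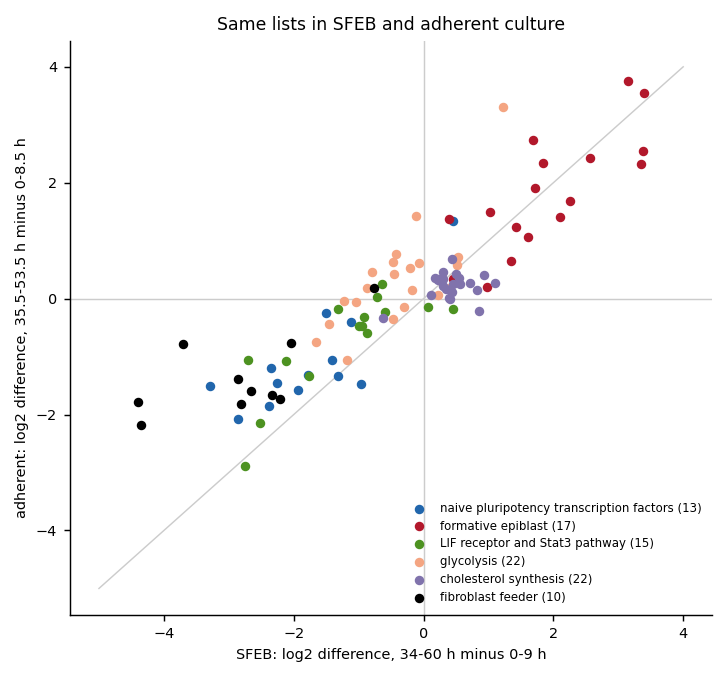
Log2 difference between late and early populations in SFEB (x axis) and in the adherent culture (y axis), 1 point per gene, for 6 lists, with the line of equal differences. Most formative genes lie in the upper right and most naive and fibroblast genes in the lower left, while glycolysis genes lie mostly above the line (medians -0.36 and 0.31).

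Single SFEB cells, 8 each at 0, 9, 38 and 60 h, were collected in parallel with 4 of the 11 populations, and each group of 8 is 1 sample, so their values are given without a test, as means of log10(RPKM + 1). The study quantile normalized expression between cells. In each cell 5055 to 5204 genes stood above 0.5 RPKM, so that level is close to a fixed rank within a cell. Of the large population rises found in the cell table, 86.1% (199 of 231) had a higher mean at 38 and 60 h than at 0 and 9 h, and 81.8% of the large falls (486 of 594) a lower one, where all genes split 49.5% and 50.5%. Esrrb stood above 0.5 RPKM in 16 of 16 cells at 0 and 9 h and in 8 of 16 at 38 and 60 h, with means of 1.52 and 0.566. Zfp42 was above that level in all 32 cells while its mean went from 2.34 to 1.604, and at 60 h 3 of its 8 values, 0.310, 0.391 and 0.2995, lay just over the level while the highest was 2.68. Bcl3 went from 15 cells to 1. Among rises, Dnmt3b went from 11 to 16 of 16 cells and Pou3f1 from 4 to 11. Sall2 went from 0 of 16 cells, which sets no limit on cells that express the gene, to 11, and Cldn7 from 7 to 15. Fgf5, among the largest rises of the populations, was above the level in 0 of 16 early and 5 of 16 late cells. Of the LIF and Stat3 list, 13 of 15 lower in the populations, 8 of 14 genes had a higher mean in the cells at 38 and 60 h and 6 a lower one. Stat3 itself went from 0.348 to 0.2701. Fibroblast markers were lower in 8 of 8, and Col1a1 was above 0.5 RPKM in 7 early and 1 late cells. With 8 cells a time point, differences of a few cells cannot be told from sampling.

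**Figure D5:**
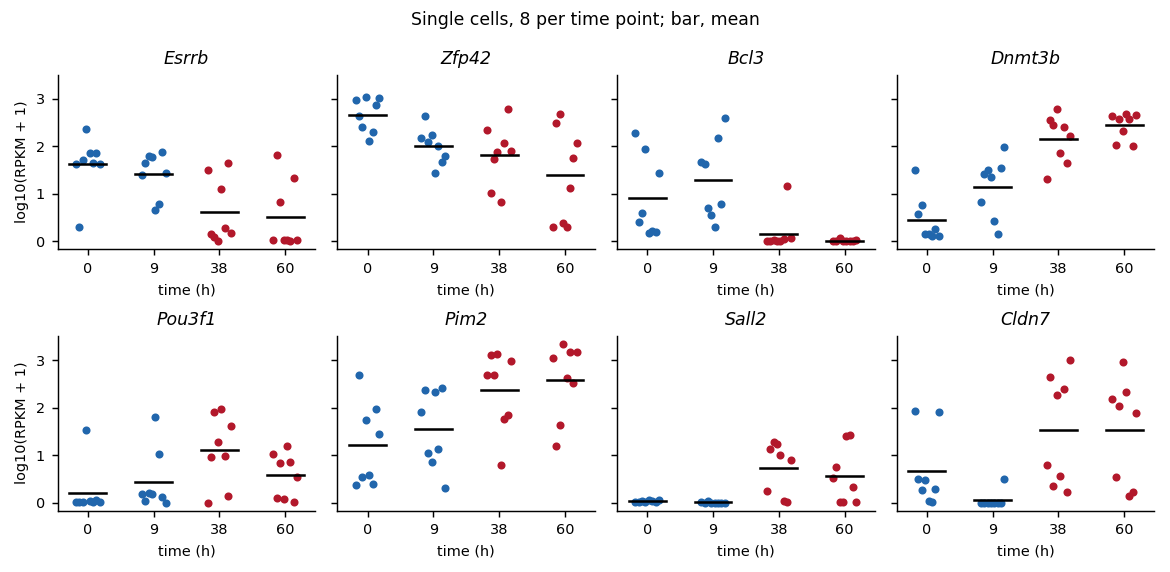
Log10(RPKM + 1) of 8 genes (y axis) in single cells at 0, 9, 38 and 60 h (x axis), 8 points per time point, blue at 0 and 9 h and red at 38 and 60 h, with the mean as a bar. Esrrb and Bcl3 lie near 0 in many late cells, Zfp42 spreads from 0.2995 to 2.68 at 60 h, and the mean of Dnmt3b goes from 0.801 to 2.295 and that of Pim2 from 1.38 to 2.48.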

How the data were processed

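Expression was measured by RNA sequencing of total RNA (Nextera XT libraries). The authors mapped reads to mm9 and quantified genes with tools that their processing notes name as TopHat2 2.0.8b and Cufflinks 2.1.1, whereas the study's methods name earlier versions of both. The deposited SFEB population values are FPKM that the authors corrected with ComBat. Because the correction left 708 values below 0 in 284 genes among the 11 populations, these deposited values were treated as a score and not as plain FPKM. The batches given to ComBat are not given in the sources used here. The adherent table holds FPKM as deposited by the authors, and the single-cell table holds log10(RPKM + 1) as deposited by the authors, on which no count model was run. The study states that single-cell values were quantile normalized between cells. The study states a minimum number of reads for each library, but the depth of each is unknown from these values, so no counting interval is given.

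Values below 0 were set to 0 and log2(FPKM + 1) was taken. Genes above 1 FPKM in at least 4 of the 11 populations were fitted with limma 3.58.1 (R 4.3.3, empirical Bayes with a variance trend), 34–60 h against 0–9 h with no covariate, and p-values were adjusted by Benjamini-Hochberg over all 12306 genes. The adherent populations were fitted alone in the same way, with genes above 1 FPKM in at least 2 populations. No test was made across tables. Genes in the text are the members of 20 lists, the 10 largest rises and 10 largest falls, the genes that crossed between 1 and 5 FPKM, and the 5 that differed most in sign from the adherent culture. Some list members are counted but not reported here by name. Members and lists were chosen with earlier results of these data known. Windows come from labelled times, and 1 population at 0 h whose label gives no sample type was placed by its title. Alternatives changed the pseudocount, the filter, the scaling, the series used, the variance model and the populations included. The populations at 22 h and from 68 h on entered no test but alternatives that added 22 or 68 h.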

Additional observations from a re-analysis of the deposited data

Results flagged for a closer look

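Among 456 gene and window combinations, 21 had a highest or lowest population separated from the others by more than a gap test for small groups (Dixon's, at its 95% critical value) allows. Chance alone flags about 1 in 20 groups. At 0–9 h the outlying population was that of 2 h for Gbx2 (5.604 FPKM, others 11.1 to 14.8), Tet2 (7.50, others 14.5 to 21.1), Dppa5a (1747, others 773 to 902), Sox4 (28.3, others 13.1 to 15.0), Dnmt1 (38.2, others 50.7 to 57.7), Uhrf1 (65.9, others 106 to 119), Bmpr1a (10.5, others 14.9 to 16.3), Tcf7 (14.9, others 19.8 to 21.5), Cox6a1 (572, others 331 to 388) and Itga6 (10.9, others 17.5 to 21.2). The same population had the highest summed FPKM of the 11, 572961. Fgf8 was high at 0 h in the parallel series (2.07, others 0.362 to 0.751), and Fgfr4 at 0 h in the first series (2.20, others 1.16 to 1.45).

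At 34–60 h the 34 h population was high for Socs2 (40.1 FPKM, others 31.1 to 33.3) and Eno2 (1.42, others 0.731 to 0.854) and low for Hk2 (37.4, others 41.1 to 42.5) and Mycl1 (6.48, others 8.54 to 9.08). The 42.5 h population was low for Slc2a3 (45.5, others 111 to 150.3) and Pax6 (3.76, others 5.82 to 6.62). The 54.5 h population was high for Jak2 (2.25, others 1.50 to 1.62). The 60 h population was low for Wt1 (12.7, others 23.5 to 28.3) and high for Gpi1 (147, others 134 to 137).

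Between cultures, Cpz fell in SFEB (-0.61) and rose in the adherent culture (1.26), with every late population on the same side of every early one in each culture. That difference between cultures was not tested.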

How the results depend on the processing

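Leaving out each SFEB population in turn gave 1605 to 2376 higher and 2464 to 3127 lower genes, against 2078 and 2872. The parallel series alone, 2 populations against 2, gave 137 and 323 (116 and 304 by a log2 of 1 or more), and the first series alone 1489 and 2270. Genes above 5 FPKM gave 1612 and 1733, with 579 large falls. A pseudocount of 0.1 gave 419 large rises and 1363 large falls. With 0 to 2 h left out, an alternative chosen after seeing the data, 1443 genes were higher and 2233 lower, with 580 large falls, and Tdgf1 turned from -0.11 to 0.71. Fewer samples or genes enter the series, filter and 0 to 2 h alternatives by construction. Quantile normalization and median centring turned the split to 2938 and 2327 and to 3107 and 2344. In the adherent culture, quantile normalization gave 564 and 341 against 336 and 585, and leaving out populations 24 to 505 and 46 to 1164. For the scalings and the pseudocount the cause was not tested.

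Of the 228 genes tested for the text, 190 passed. Of those 190, 128 lost the call in at least 1 alternative, 127 of them in the parallel series alone. Leaving out 1 population ended the call of 22 genes and made that of 8. With 0 to 2 h left out 45 lost the call, 5 gained one and 1 turned. An interaction of window and series, also chosen after seeing the data, passed for 1 gene, Relt (1.99, adjusted p = 0.0475), with 353 at an unadjusted p below 0.05. Of 499 list medians, each list under each alternative, 25 moved by more than the spread and 25 changed sign, among them glycolysis with 0 to 2 h left out (-0.36 to 0.07). Of 209 genes in the single cells, 14 changed sign when cells were averaged before taking log10. No paired analysis was possible because the SFEB population columns carry no replicate numbers. A term for the series, which spans both windows, gave 1997 higher and 2815 lower genes. The depth of each library is unknown from these values, and each time point is 1 library.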

Other observations

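The 22 h population stands in neither window, and some genes were highest there or just after. Tcf15 read 91.7 FPKM at 22 h, above all 11 populations of the windows. Dnmt3l read 111 at 22 h, against 81.1 at most at 0–9 h and 29.5 at 60 h. Dppa4 read 112 at 22 h and 113 at 34 h, against 83.8 at most at 0–9 h and 50.6 at 60 h. The 22 h values come from 1 library.

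After 60 h the pluripotency genes spread widely over the 10 populations at 68 to 216 h. Pou5f1 ranged from 23.7 to 406 FPKM, Nanog from 13.9 to 142 and Dnmt3b from 20.9 to 335. Fgf5 ranged from 0.877 to 25.9 and Sox11 from 20.6 to 143.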
